A study of Mus musculus with 15 samples.

Results

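RNA of mouse macrophages was separated into a nucleoplasmic fraction, the RNA that dissolves when purified nuclei are lysed, and a chromatin fraction, the RNA that stays in the pellet, and the 5 nucleoplasmic libraries were set against the 5 chromatin libraries collected at the same times. The cells were macrophages grown with M-CSF from the bone marrow of C57BL/6 mice of mixed sex, with no other genotype named, either unstimulated (0 min) or given 100 ng/ml lipid A, a bacterial membrane lipid that Toll-like receptor 4 senses, for 15, 30, 60 or 120 min. Every fraction and time is 1 library, made from RNA depleted of ribosomal RNA, and it is not stated if nucleoplasmic and chromatin RNA of 1 time came from the same plates or if animals were pooled. The 5 cytoplasmic libraries of the same series are used only where named. All 10020 genes of the deposited exon table were considered, and the 8964 genes with 1 RPKM (reads per kilobase of exon, scaled to library size) or more in 3 or more of the 10 libraries were compared. The other 1056 genes were too low to enter.

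An RNA is made on chromatin, spliced mostly while it is still attached, cleaved at its 3' end and released into the nucleoplasm, from which it is exported. Exon reads of the chromatin fraction therefore hold unfinished transcripts, finished ones not yet released, and noncoding RNAs that act on chromatin or in nuclear bodies. In macrophages, the genes that answer lipid A begin to be transcribed within minutes, so that for a short time most of their RNA is new.

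The nucleoplasmic libraries held 24.4 to 31.4 M reads and the chromatin libraries 38.8 to 52.3 M, as recovered from the deposited values. The listed genes' exons took 57.9% ± 2.89 of nucleoplasmic reads (SD, n = 5) and 22.5% ± 2.64 of chromatin reads (SD, n = 5). The ranges did not overlap (two-sided exact permutation test, p = 0.00794, the smallest that 5 against 5 libraries allow; it takes no account of the pairing by time). With this gap in exon share, the median gene's nucleoplasmic RPKM was above its chromatin RPKM at every time, by 0.89, 0.88, 1.11, 1.12 and 0.75 on the log2 scale at 0, 15, 30, 60 and 120 min. Each library was therefore set to the same median gene, and a log2 difference below 0 means that a gene lay further toward chromatin than the median gene, not always that its RPKM was lower in nucleoplasmic RNA. A library gives a gene's share of its fraction's RNA, so fewer cells with a transcript and less of it per cell cannot be told apart, nor can the total RNA of each fraction be read from it. All 22 macrophage identity genes were tested and summed to 13576 to 17842 RPKM in nucleoplasmic RNA and 1992 to 3162 RPKM in chromatin RNA. Markers of T cells (4 of 12), B cells (3 of 10), dendritic cells (1 of 10), erythroid cells (1 of 10) and stromal cells (1 of 12) were mostly missing from the table. Of 15 neutrophil markers 10 were listed, with sums of 78.5 to 106 RPKM in nucleoplasmic RNA and 10.8 to 26.9 RPKM in chromatin RNA.

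Between the fractions, 1205 genes (13.4%) were at least 2-fold higher in nucleoplasmic RNA and 1001 genes (11.2%) at least 2-fold lower, relative to the median gene, at a Benjamini-Hochberg adjusted p under 0.05 in limma with time as a term. Together these were 2206 genes (24.6%), and 2182 of them lay on the same side of the median gene at all 5 times. Relative to the median gene, 4 of the genes at an adjusted p under 0.05 were 4-fold or more higher, 166 were 4-fold or more lower and 17 were 8-fold or more lower. This balance depends on the centring, since on the deposited scale 940 were 4-fold or more higher and 22 lower. Of the genes tested, 517 passed the filter through nucleoplasmic values alone and 136 through chromatin values alone. Those 136 could be called on the lower side only. For the 517 the side is not fixed, since calls are relative to the median gene. Among mitochondrial ribosomal proteins, 4 were higher with or without the 9 members that passed through nucleoplasmic values alone. The log2 difference ranged over -5.12 to 2.21, with quartiles at -0.51 and 0.63. On the deposited scale, without setting the median gene equal, 4148 genes were higher and 215 lower (95.1% of calls higher). With libraries set equal at their upper quartile the counts were 723 higher and 1492 lower (32.6% higher), and after quantile normalization 758 higher and 988 lower (43.4% higher). The 5 times are not replicate cultures, so the p-values measure how steady a difference was over the time course.

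**Figure D1:**
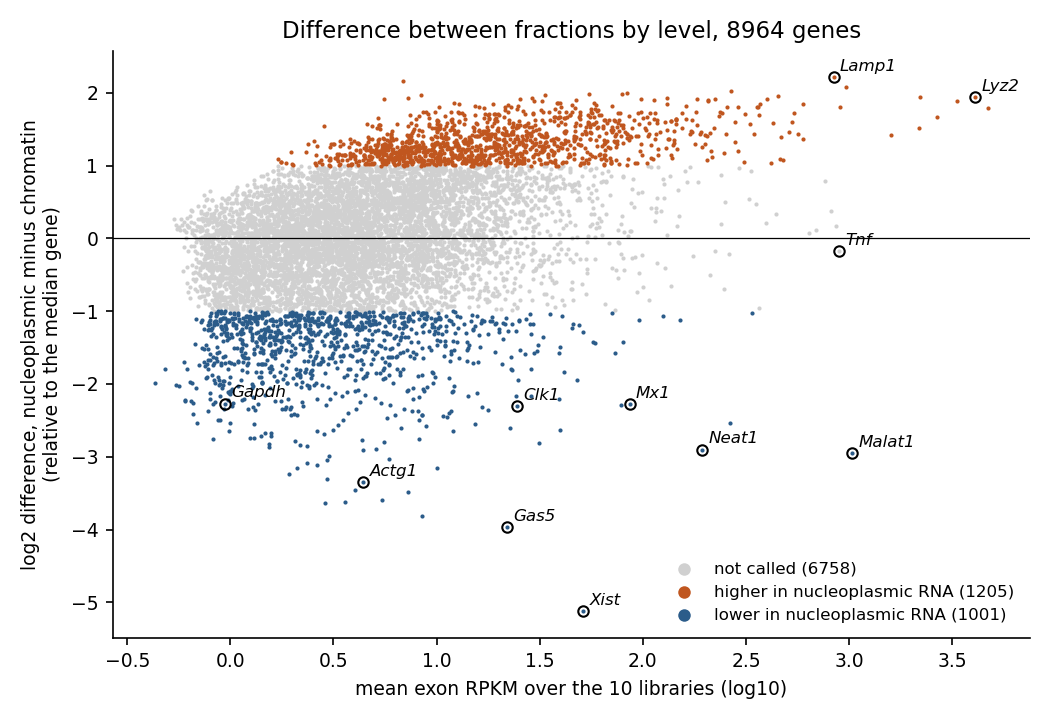
Each of the 8964 points is a gene, with its mean exon RPKM over the 10 libraries (log10) across and its log2 difference, nucleoplasmic minus chromatin relative to the median gene, upward. Orange points are the 1205 genes called higher in nucleoplasmic RNA, blue points the 1001 called lower and grey points the rest, and the genes far below the line include Xist, Gas5, Malat1 and Neat1.

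Xist and Gas5, both noncoding, lay furthest toward chromatin of the called genes with a mean of 3 RPKM or more, and of the 12 lowest of these 7 had a noncoding RefSeq accession and 5 a coding one. Of 12 tested RNAs on a list of nuclear long noncoding RNAs, 10 were lower in nucleoplasmic RNA and 0 higher, with a median log2 difference of -2.74 (-1.86 on the deposited scale, where 9 were lower), against 0.05 over all tested genes, of which 11.2% were lower. Of the 12, 4 passed the filter through chromatin values alone, which fixes their side, and among the other 8, 6 were lower and 0 higher (median -2.73). Xist, the RNA that coats and silences the inactive X chromosome, had 5.48, 7.38, 4.75, 3.76 and 2.88 RPKM in nucleoplasmic RNA at 0, 15, 30, 60 and 120 min, against 110, 106, 91.1, 111 and 72.1 RPKM in chromatin RNA. Every nucleoplasmic value lay far under every chromatin value, and the log2 difference of -5.12 ± 0.18 (SE; limma, adjusted p = 6.01e-09) was the lowest of all genes. Malat1, a long RNA of nuclear speckles, had 369, 651, 438, 305 and 289 RPKM in nucleoplasmic RNA, against 1667, 1898, 1790, 1636 and 1322 RPKM in chromatin RNA. Neat1, the scaffold of paraspeckles, had 92.8, 123, 85.0, 58.5 and 24.9 RPKM in nucleoplasmic RNA, against 307, 508, 407, 214 and 120 RPKM in chromatin RNA. Malat1 was highest at 15 min and Neat1 lowest at 120 min in both fractions, and neither RNA's values overlapped between fractions; their log2 differences were -2.95 ± 0.20 and -2.90 ± 0.17 (limma, adjusted p = 4.35e-07 and 1.23e-07). Both were also far above their cytoplasmic level in the nucleoplasm, by 3.89 for Malat1 and 3.90 for Neat1 on the centred log2 scale. Kcnq1ot1, the imprinted antisense RNA of the Kcnq1 locus, had a log2 difference of -3.23 ± 0.22 and Pvt1 one of -2.12 ± 0.22, both at low levels (under 7 RPKM in each library) and both past the filter through chromatin values alone.

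Several chromatin-held noncoding RNAs are the primary transcripts from which microRNAs are cut in the nucleus by Drosha. Dleu2, which carries miR-15a and miR-16, had 0.972, 1.18, 1.38, 0.700 and 0.545 RPKM in nucleoplasmic RNA, against 5.96, 4.2, 7.35, 3.38 and 2.92 RPKM in chromatin RNA (log2 difference -2.69 ± 0.16; limma, adjusted p = 1.23e-07). Mir17hg, the host of the miR-17 cluster, had 0.268, 0.313, 0.241, 0.787 and 0.113 RPKM in nucleoplasmic RNA, against 1.58, 1.49, 1.19, 4.92 and 0.496 RPKM in chromatin RNA (-2.22 ± 0.20). Mir17hg passed the filter through chromatin values alone, so it could be called on that side only. Both hosts lay on the chromatin side at all 5 times. These 2 genes and the miR-22 host that follows are named because of their microRNAs, after their values were seen. Other microRNA hosts were not counted, so these do not speak for such hosts as a group. The gene listed as 2210403K04Rik, the host of miR-22, had 4.69, 10.4, 13.0, 13.3 and 3.25 RPKM in nucleoplasmic RNA, against 7.47, 14.6, 23.0, 21 and 7.07 RPKM in chromatin RNA, a smaller gap of -1.59 ± 0.14 (limma, adjusted p = 2.42e-06). The mature sequences that these 3 hosts carry show which products leave them; they are from RefSeq (GRCm38.p6), written 5' to 3' with the seed, bases 2 to 8, in capitals, and none was itself measured here. The first pair shares 1 seed and lies in Dleu2 (miR-15a-5p at chr14:61632075-61632096 and miR-16-5p at chr14:61631936-61631957, both on the minus strand).
miR-15a-5p: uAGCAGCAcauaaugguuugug
miR-16-5p: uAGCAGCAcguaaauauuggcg
The Mir17hg products lie on the plus strand of the same chromosome, from miR-17-5p at chr14:115043684-115043706 to miR-92a-3p at chr14:115044476-115044496, and hold 2 pairs with a shared seed.
miR-17-5p: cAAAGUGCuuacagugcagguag
miR-20a-5p: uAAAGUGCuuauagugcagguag
miR-18a-5p: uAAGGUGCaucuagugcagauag
miR-19a-3p: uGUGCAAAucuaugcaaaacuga
miR-19b-3p: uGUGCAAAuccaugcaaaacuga
miR-92a-3p: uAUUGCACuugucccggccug
miR-22-3p lies on the plus strand at chr11:75463772-75463793.
miR-22-3p: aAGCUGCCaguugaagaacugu

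Hosts of small nucleolar RNAs, whose introns give the guides of ribosomal RNA modification, showed a like pattern. Of 9 tested hosts, 6 were lower (66.7%, against 11.2% of all tested genes) and 0 higher, with a median of -1.44 (-0.56 on the deposited scale, where 3 were lower and 1 higher). Gas5 had 4.15, 6.06, 5.41, 2.79 and 3.32 RPKM in nucleoplasmic RNA, against 43.0, 33.3, 44.1, 33.3 and 45.2 RPKM in chromatin RNA. Its 2 sets of values did not come near each other, and the log2 difference of -3.97 ± 0.18 (limma, adjusted p = 3.52e-08) was second to that of Xist; 11.7% of the Gas5 transcript is shared with other transcripts. Snhg1 (-2.40 ± 0.20), Snhg12 (-1.44 ± 0.16) and 1500012F01Rik (-1.06 ± 0.22) were also lower. Among all 229 tested transcripts with a noncoding RefSeq accession, 90 (39.3%) were lower and 8 higher, against 911 (10.4%) lower and 1197 higher among 8735 coding ones. Their median of -0.66 became 0.22 on the deposited scale. Some of the 90, such as Phxr4 and Airn, stayed under 1 RPKM in every nucleoplasmic library. Those passed the filter through chromatin values alone, which fixes the side on which they could be called. Noncoding accessions include untranslated forms of coding genes, such as those listed for Clk1, Mx1 and Mx2.

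Transcripts for the splicing machinery's SR proteins, which bind exons and are regulated through their own splicing, lay toward chromatin. Of 28 tested SR proteins and SR kinases, 16 were lower (57.1%) and 0 higher, with a median of -1.30 (-0.42 on the deposited scale, where 6 were lower and 1 higher). Over all tested genes 11.2% were lower and 13.4% higher. Clk1, a kinase that phosphorylates SR proteins, had 12.4, 16.1, 17.5, 16 and 3.99 RPKM in nucleoplasmic RNA, against 41.5, 47.6, 49.9, 23.9 and 15.5 RPKM in chromatin RNA. Both fractions were lowest at 120 min and the chromatin value was above the nucleoplasmic one at every time (-2.30 ± 0.16; limma, adjusted p = 4.94e-07). Clk4 (-2.18 ± 0.13), the U1-associated factor Luc7l3 (-2.37 ± 0.14), Sfrs18 (-2.37 ± 0.16) and Srsf5 (-1.53 ± 0.14) were lower too. Srsf2 (-0.77 ± 0.18) and Tra2a (-0.69 ± 0.17) lay on the same side but did not reach the 2-fold limit. The core spliceosome and hnRNP list did not lean this way in its median, 0.20 (-0.02 with upper quartile centring). Of its 43 members, 5 were higher (11.6%) and 8 lower (18.6%). Its members went both ways, from Prpf8, the central scaffold of the spliceosome (1.30 ± 0.15), to Hnrnpa1 (-2.74 ± 0.14), of whose transcript 58.1% is shared with other transcripts.

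Genes of the nuclear stages of gene expression gave mixed or small differences. The chromatin modifier list had 12 of 64 lower and 1 higher, with a median of -0.19 that became 0.69 on the deposited scale. Dnmt1, which copies DNA methylation at replication, was the member that was higher (1.16 ± 0.15), whereas the DNA demethylase Tet2 (-1.56 ± 0.18) and Brwd1 (-1.7 ± 0.17) were lower. The mRNA export and nuclear pore list had 3 of 41 lower (7.32%, under the 11.2% of all tested genes) and 0 higher (median 0.27). Those 3 were Nxf1, the main mRNA export receptor, and Thoc1 and Thoc2 of the TREX export complex. Nxf1 had 14.7, 15.4, 12.8, 14.5 and 23.4 RPKM in nucleoplasmic RNA, against 22.3, 20.5, 18.3, 29.9 and 57.0 RPKM in chromatin RNA (-1.63 ± 0.17; limma, adjusted p = 4.8e-06). In the RNA decay list 9 of 50 were lower and 0 higher, with a median of -0.30 (0.57 on the deposited scale), among them Zfc3h1, which links nuclear RNA to the exosome (-2.11 ± 0.16). The RNA polymerase II and elongation list had shares under those of all genes, with 3 higher and 3 lower of 37 (median 0.01, -0.21 with upper quartile centring). Polr2a, the largest subunit (1.21 ± 0.14), stood against Ccnt2, a cyclin of the elongation kinase P-TEFb (-2.45 ± 0.16), and Cdk12, a kinase of the polymerase tail (-1.30 ± 0.17).

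**Figure D2:**
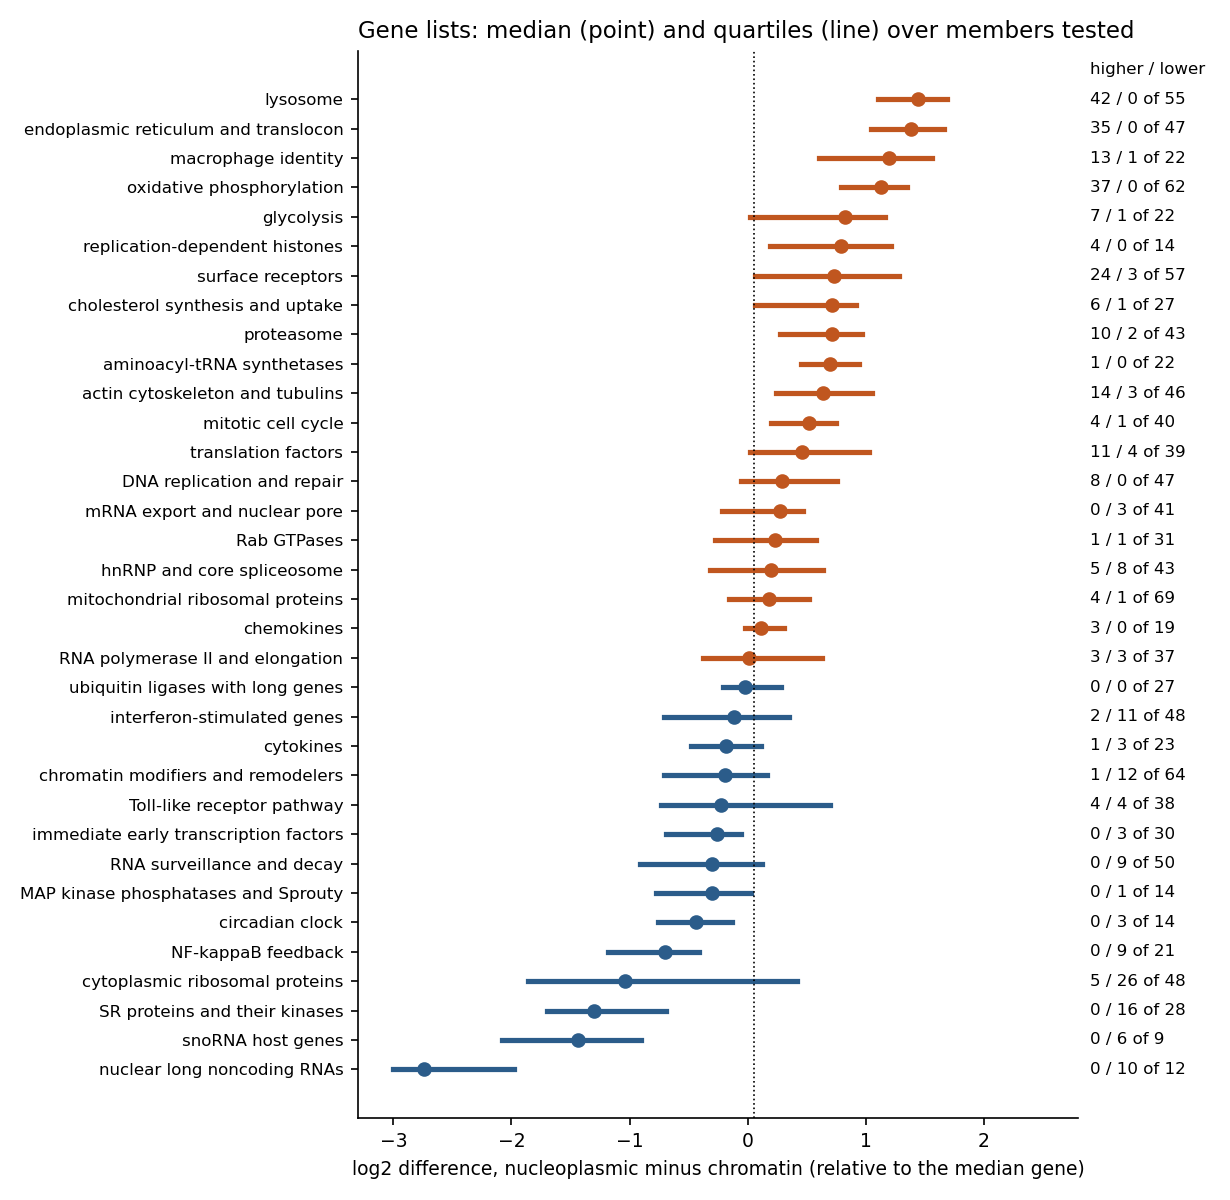
For each gene list, the plot gives the median log2 difference of its tested members (point, orange above 0 and blue below 0) and their quartiles (line), running from the highest median down. The numbers at the right count members called higher and lower in nucleoplasmic RNA, and the dotted line is the median of all tested genes, 0.05. Lysosome, endoplasmic reticulum, macrophage identity and oxidative phosphorylation genes stand at the top, and nuclear long noncoding RNAs at the bottom.

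At the nucleoplasmic end stood genes of the lysosome, the degradative compartment that macrophages are rich in. Of 55 tested lysosome genes, 42 (76.4%, against 13.4% of all tested genes) were higher and 0 lower, with a median of 1.44, and the medians at 0, 15, 30, 60 and 120 min were 1.45, 1.75, 1.27, 1.64 and 1.19. These genes are also abundant, with median levels of 120 RPKM in nucleoplasmic RNA and 25.4 RPKM in chromatin RNA. Of all tested genes with a mean of 100 RPKM or more, 67.5% were higher (median 1.37). At 30 to 100 RPKM 53.0% were higher (median 1.04). The part of abundance in the lysosome difference was not tested. Lamp1, a main glycoprotein of the lysosomal membrane, had 1629, 1636, 1203, 1757 and 1300 RPKM in nucleoplasmic RNA, against 211, 147, 164, 134 and 238 RPKM in chromatin RNA. No nucleoplasmic value came near a chromatin value, and the difference of 2.21 ± 0.20 (limma, adjusted p = 2.33e-06) was the largest of all genes. The protease cathepsin S, Ctss, averaged 1700 ± 186 RPKM in nucleoplasmic RNA and 223 ± 56.7 RPKM in chromatin RNA (SD, n = 5 each; 2.08 ± 0.19). Lysozyme, Lyz2, had a difference of 1.94 ± 0.21, with 35.8% of its transcript shared with another, and cathepsin B, Ctsb, one of 1.94 ± 0.20. Lysosome members that were not called were led by the battenin gene Cln3 (-0.66 ± 0.27) and by subunits of the proton pump.

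Genes of the endoplasmic reticulum itself, where secreted and membrane proteins are made, also lay toward the nucleoplasm. In the endoplasmic reticulum and translocon list 35 of 47 were higher (74.5%, against 13.4% of all tested genes) and 0 lower (median 1.38). The chaperone partner Sdf2l1 (1.85 ± 0.16) and the disulfide isomerase P4hb (1.82 ± 0.18) led the list. Of 57 surface receptors, 24 were higher (42.1%) and 3 lower (5.26%, under the 11.2% of all tested genes), with a median of 0.73. Csf1r, the M-CSF receptor, had 742, 737, 781, 807 and 534 RPKM in nucleoplasmic RNA, against 146, 132, 152, 102 and 120 RPKM in chromatin RNA (1.58 ± 0.17; limma, adjusted p = 6.68e-06). Trem2 (1.89 ± 0.24) and the Fc receptor Fcgr3 (1.74 ± 0.20) were higher still, whereas the receptors for other colony-stimulating factors, Csf3r (-1.63 ± 0.15) and Csf2ra (-1.17 ± 0.21), were lower. For these lists the nucleoplasmic level also exceeded the cytoplasmic one: the median centred log2 ratio of nucleoplasmic to cytoplasmic RNA was 2.32 for the lysosome, 2.02 for the endoplasmic reticulum list and 2.04 for surface receptors, against -0.15 over all tested genes. The part of this excess in the difference from chromatin RNA was not tested. After quantile normalization 12 lysosome genes, 22 endoplasmic reticulum genes and 3 surface receptors were called higher.

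Oxidative phosphorylation genes, which code for the mitochondrial respiratory chain, were higher without that excess over the cytoplasm. Of 62 tested, 37 were higher and 0 lower (median 1.13), while their median nucleoplasmic to cytoplasmic log2 ratio was -0.61. Cox4i1, a subunit of cytochrome c oxidase, had 117, 120, 162, 180 and 157 RPKM in nucleoplasmic RNA, against 20.2, 15.7, 14.3, 18.1 and 32.6 RPKM in chromatin RNA. The nucleoplasmic values were all above the chromatin values (2.0 ± 0.17; limma, adjusted p = 1.33e-06). The calcium-binding proteins S100a4 (2.02 ± 0.18, 56.1% shared sequence), S100a6 (1.98 ± 0.19) and S100a9 (1.97 ± 0.15) were equally far to the nucleoplasmic side, with Taldo1 of the pentose phosphate pathway (1.97 ± 0.16), the secreted ribonuclease Rnase4 (1.98 ± 0.16), the protease inhibitor Cst3 (1.96 ± 0.17) and 2410015M20Rik (2.16 ± 0.19). Smaller shares of other housekeeping lists were higher: 10 of 43 proteasome genes (2 lower, median 0.71), 7 of 22 glycolysis genes (1 lower, median 0.82), 6 of 27 cholesterol genes (1 lower, median 0.71), 14 of 46 actin and tubulin genes (3 lower, median 0.64) and 11 of 39 translation factors (4 lower, median 0.46). Over all tested genes 13.4% were higher. After quantile normalization the higher counts of these 5 lists were 0, 4, 3, 0 and 2, in the same order, so most of these calls depend on the scaling. Among replication-dependent histones, whose messages end without a poly(A) tail, 4 of 14 were higher and 0 lower (median 0.79). Mitochondrial ribosomal proteins had 4 of 69 higher and 1 lower, with a median of 0.18 that became -0.04 with upper quartile centring.

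Cytoplasmic ribosomal proteins lay toward chromatin, with 26 of 48 lower and 5 higher (median -1.04, -0.17 on the deposited scale, but 0.72 over members with a mean of 5 RPKM or more), and 14 of the 48 passed the filter through 1 fraction alone. These shares were 54.2% lower and 10.4% higher, against 11.2% and 13.4% over all tested genes. Over 10% of the transcript is shared with other transcripts for 45 of the 48, since these genes have many processed copies in the genome. The 3 members with less shared sequence had a median of 1.70, with 2 higher and 1 lower. Rps3 was among those higher, at 46.3, 40.9, 41.5, 44.0 and 39.8 RPKM in nucleoplasmic RNA and 7.43, 4.72, 6.04, 5.63 and 8.12 RPKM in chromatin RNA (1.78 ± 0.15). Rpl24 (-2.72 ± 0.18, 77.5% shared) and Rpl17 (-2.31 ± 0.19, 80.2% shared) were at the other end. The same holds for Gapdh (-2.27 ± 0.20, 86.1% shared), which averaged 0.264 RPKM in nucleoplasmic RNA and 1.63 RPKM in chromatin RNA, and for the actin gene Actg1 (-3.35 ± 0.15, 61.1% shared). These genes' counts are uncertain, because reads of copies may have been split or dropped and the handling of such reads is not given in the sources used here. Over all tested genes, 11.4% shared over 10% of their sequence, and among called genes this was 10.5% of those higher and 18.5% of those lower.

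**Figure D3:**
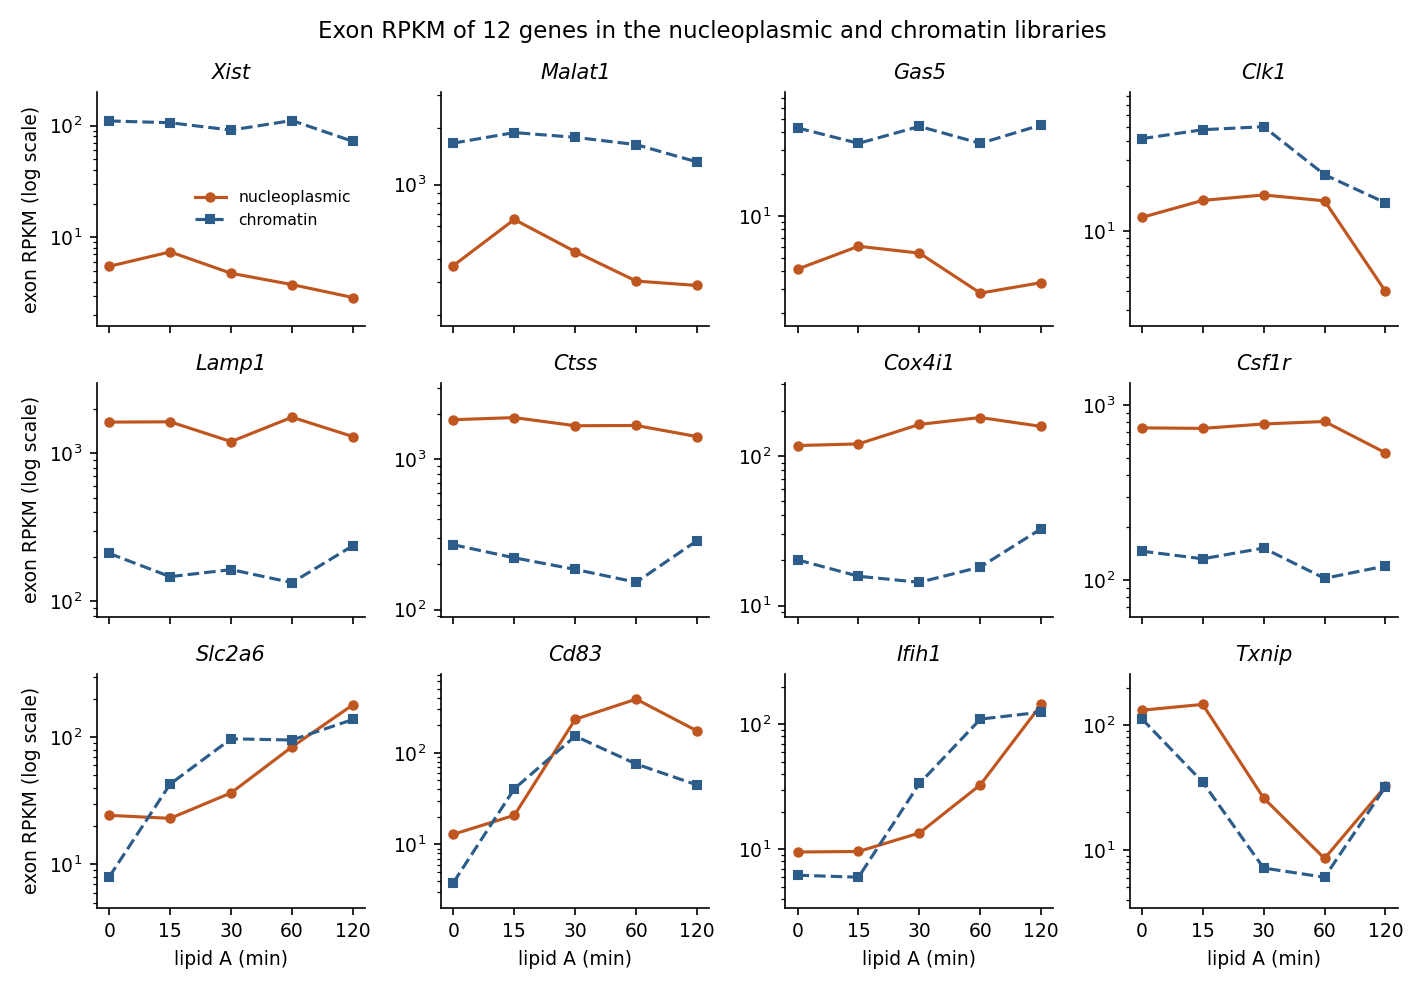
Exon RPKM (log scale) against minutes of lipid A for 12 genes, with nucleoplasmic libraries as orange circles on solid lines and chromatin libraries as blue squares on dashed lines. Each point is 1 library. Xist, Malat1, Gas5 and Clk1 stay lower in nucleoplasmic RNA, Lamp1, Ctss, Cox4i1 and Csf1r stay higher, and the lines of Slc2a6, Cd83 and Ifih1 cross during the time course.

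Across genes the difference ran with the level. The median log2 difference was -0.25 for genes with a mean under 3 RPKM, 0.11 at 3 to 10 RPKM, 0.57 at 10 to 30 RPKM, 1.04 at 30 to 100 RPKM and 1.37 at 100 RPKM or more (Spearman's rho 0.44 across genes, which are not independent). These means are taken over the same 10 libraries whose values form the difference. With the level read from the 5 cytoplasmic libraries instead, added after seeing the data, the median was -0.67 under 1 RPKM, 0.04 at 3 to 10 RPKM and 1.17 at 100 RPKM or more (rho 0.42). Because 0.5 RPKM was added before logs and libraries were centred, values near 0 in both fractions lie about 0.71 to 1.08 below the median gene. The part of this offset in the low end of both trends was not tested. Transcripts under 1 kb had a median of 0.51 and those of 5 kb or more one of -0.14 (rho -0.17). Gene length (rho -0.13) and exon number (rho -0.11) ran the same way. Among coding genes far to the chromatin side, Bbs10, a chaperonin-like gene of Bardet-Biedl syndrome, had 1.95, 2.18, 1.16, 2.18 and 0.323 RPKM in nucleoplasmic RNA, against 22.4, 16.8, 12.3, 20.3 and 5.61 RPKM in chromatin RNA (-3.82 ± 0.14; limma, adjusted p = 6.96e-09). Pde1b, a phosphodiesterase of cyclic nucleotides, averaged 3.12 RPKM in nucleoplasmic RNA and 17.1 RPKM in chromatin RNA (-3.15 ± 0.17). The adhesion gene Icam4, induced by lipid A, averaged 0.518 RPKM in nucleoplasmic RNA and 5.54 RPKM in chromatin RNA (-2.99 ± 0.34). Eid3 (-3.48 ± 0.19), Phxr4 (-3.62 ± 0.19), 2810055G20Rik (-3.60 ± 0.13), 6330407A03Rik (-3.46 ± 0.19) and the pseudogene Nlrp1c-ps (-3.03 ± 0.18) completed the 12 lowest genes with a mean of 3 RPKM or more.

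The order of genes by their ratio was similar between times. The rank correlation of the ratio between any 2 times was 0.72 to 0.88 across 8964 genes, the lowest between 30 and 120 min. The SD of a gene's centred log2 ratio over the 5 times had a median of 0.33 over all genes. Among the 363 genes that passed 4-fold above 0 min in both fractions it was 0.69.

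The ratio of some genes moved with time. A change of 4-fold or more from the 0 min ratio, among genes with 1 RPKM or more in both fractions at both times, was met downward (toward chromatin) by 16 of 7232 genes at 15 min (0.221%), 48 of 6402 at 30 min (0.75%), 25 of 6157 at 60 min (0.406%) and 3 of 6045 at 120 min (0.0496%). Upward it was met by 1 gene (0.0138%), 2 genes (0.0312%), 3 genes (0.0487%) and 4 genes (0.0662%) at the same times. With 1 library per fraction and time these are sizes, with no test. Of the 77 genes with a downward change at some time, 67 were 4-fold or more above 0 min in chromatin RNA at some time, and 63 had a ratio within 2-fold of the 0 min one by 120 min. Their median ratio was 0.43, -0.43, -1.45, -0.86 and 0.12 at 0, 15, 30, 60 and 120 min. These genes were picked by this ratio, so the high start and the dip follow from the choice and are given as a description.

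Slc2a6, a glucose transporter family member, had the largest such change. It had 24.3, 23.0, 36.5, 84.0 and 180 RPKM in nucleoplasmic RNA at 0, 15, 30, 60 and 120 min, against 7.97, 42.8, 97.2, 95.1 and 138 RPKM in chromatin RNA, so its ratio at 30 min differed by -3.24 (95% counting interval -3.39 to -3.09) from that at 0 min. The chromatin level was already high at 15 min, when the nucleoplasmic level was where it had started. Ifih1, the cytosolic RNA sensor MDA5, had 9.51, 9.60, 13.5, 32.8 and 144 RPKM in nucleoplasmic RNA, against 6.20, 5.98, 33.6, 110 and 125 RPKM in chromatin RNA, a change of -2.62 at 60 min (-2.73 to -2.51). Cd83, an activation marker of antigen-presenting cells, had 12.9, 20.8, 232, 385 and 173 RPKM in nucleoplasmic RNA, against 3.84, 40.5, 152, 75.4 and 44.5 RPKM in chromatin RNA. Its change came at 15 min (-2.59, interval -2.79 to -2.39), and from 30 min on the nucleoplasmic value was the higher of the 2. Clic4 (-2.72), Prdx5 (-2.60), the kinases Mapkapk2 (-2.56) and Ripk2 (-2.55), Fam20c (-2.53) and the NF-kappaB subunit gene Nfkb2 (-2.52) had their largest change at 30 min, and Cln3 (-2.53) at 60 min. These intervals cover counting error only.

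Of the 9 genes with an upward change at some time, 7 were 4-fold or more below 0 min in chromatin RNA at some time. Txnip, an arrestin-like inhibitor of glucose uptake, had 132, 147, 26.1, 8.54 and 32.4 RPKM in nucleoplasmic RNA, against 113, 35.0, 7.16, 6.04 and 32.1 RPKM in chromatin RNA. At 15 min the chromatin level was well under that at 0 min and the nucleoplasmic level was not, a change of 1.82 (interval 1.76 to 1.88), just under the 4-fold limit. Zfp36l2, which binds AU-rich elements of messages, had a change of 2.08 at 15 min, the phosphate transporter gene Slc20a1 one of 2.18 at 60 min, and the ubiquitin ligase gene Wwp1 one of 2.42 at 120 min. Wwp1 had 36.3, 39.6, 38.7, 31.9 and 18.5 RPKM in nucleoplasmic RNA, against 41.2, 41.3, 30.6, 12 and 3.67 RPKM in chromatin RNA. At 60 min its chromatin level was well under that at 0 min, while its nucleoplasmic level was close to that at 0 min. The matrix protease gene Mmp27 (2.28) and the prostaglandin synthase gene Hpgds (1.99) had their largest change at 120 min. Ms4a6b (1.95), the splicing regulator Mbnl1 (1.89), the Golgi protein gene Rer1 (1.80) and Rgs1, a regulator of G protein signalling (1.79), had theirs at 60 min.

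**Figure D4:**
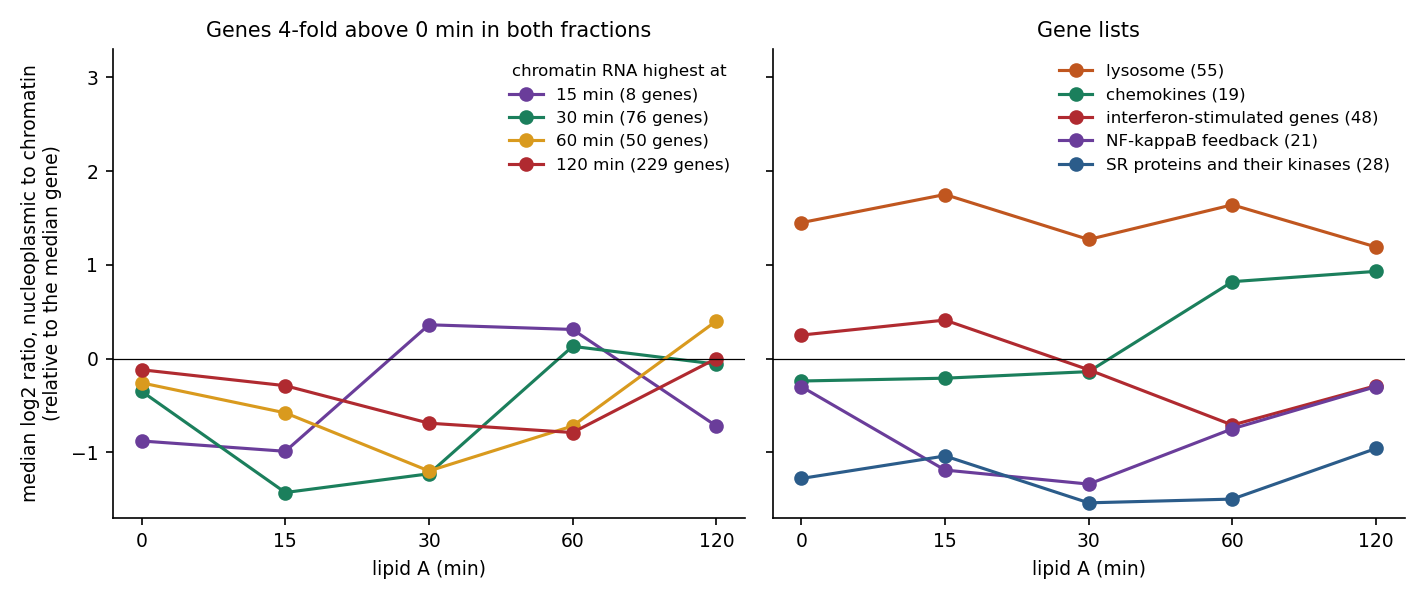
Median centred log2 ratio of nucleoplasmic to chromatin RNA against minutes of lipid A. On the left are genes 4-fold or more above 0 min in both fractions, split by the time of their highest chromatin value (8, 76, 50 and 229 genes), and on the right 5 gene lists. The lowest medians of the 4 left-hand lines come at 15, 15, 30 and 60 min, and the lysosome line stays above 1 throughout.

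Among the 363 genes that passed 4-fold in both fractions, the nucleoplasmic value was highest at a later time than the chromatin value in 82 (22.6%), at the same time in 277 (76.3%) and earlier in 4 (1.1%). For 229 genes the chromatin value was highest at 120 min, the last time taken, where a later nucleoplasmic time cannot be seen. Of the other 134, the nucleoplasmic value was later in 82 (61.2%), at the same time in 51 and earlier in 1. The most frequent shift was from 30 min in chromatin RNA to 60 min in nucleoplasmic RNA, in 43 genes. The first time past 4-fold was later in nucleoplasmic RNA for 137 genes (37.7%), the same for 216 and earlier for 10. Genes highest in chromatin RNA at 30 min (76) had median ratios of -0.35, -1.43, -1.23, 0.13 and -0.06 over the 5 times. Those highest at 60 min (50) had -0.26, -0.58, -1.20, -0.72 and 0.40. The chromatin values that define these sets also enter the ratio. Genes near 0 RPKM in both fractions at a time score below 0 there, which lowers the early medians.

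The lists of response genes differed in their course. NF-kappaB feedback genes, which are induced by NF-kappaB and mostly restrain it, had 9 of 21 lower and 0 higher, with medians of -0.30, -1.19, -1.34, -0.75 and -0.30 over the 5 times. The median over the 21 members of the difference across all 5 times, -0.70, became 0.18 on the deposited scale. Tnfaip3, the deubiquitinase A20, had 3.27, 21.8, 288, 266 and 208 RPKM in nucleoplasmic RNA, against 3.05, 104, 270, 182 and 171 RPKM in chromatin RNA. It lay furthest toward chromatin at 15 min, and its log2 difference over all 5 times was -1.12 ± 0.31 (limma, adjusted p = 0.00637). Nfkbid, an atypical inhibitor of NF-kappaB, was lower at every time (-2.16 ± 0.18), and Tank, an adaptor that binds TRAF proteins, likewise (-1.79 ± 0.27). Nfkbia, the inhibitor IkappaB-alpha, had a difference of -0.70 ± 0.21 and was not 2-fold lower. The immediate early list had 3 of 30 lower (10.0%, near the 11.2% of all tested genes) and 0 higher, with a median of -0.26 (0.62 on the deposited scale), and Nfkbiz, Rel and Bcl3 were the 3.

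Interferon-stimulated genes reached their lowest median later, with 0.25, 0.41, -0.12, -0.71 and -0.29 over the 5 times. Of 48 tested, 11 were lower (22.9%) and 2 higher (4.17%), with a median of -0.12 (0.76 on the deposited scale). Over all tested genes 11.2% were lower and 13.4% higher. Mx2, an antiviral GTPase gene listed with a noncoding accession, had 0.923, 1.21, 2.06, 4.68 and 39.1 RPKM in nucleoplasmic RNA, against 2.82, 5.15, 6.58, 28.1 and 137 RPKM in chromatin RNA (-2.61 ± 0.19; limma, adjusted p = 6.44e-07). Its chromatin level stayed above its nucleoplasmic level even at 120 min. Ifit1, a coding antiviral gene of the same list, had 13.9, 14.7, 16.7, 58.7 and 801 RPKM in nucleoplasmic RNA, against 4.1, 3.25, 11.8, 40.5 and 263 RPKM in chromatin RNA (0.38 ± 0.26, not called). The tetherin gene Bst2 (1.62 ± 0.20) and the peptide transporter gene Tap1 (1.04 ± 0.17), both membrane proteins, were the 2 that were higher.

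Chemokines, the secreted attractants of leukocytes, moved the other way late, with medians of -0.24, -0.21, -0.14, 0.82 and 0.93. These medians include members under 1 RPKM early on, and values near 0 RPKM in both fractions score below 0. For the 12 members with 1 RPKM or more in both fractions at both times, the median change from 0 min was 0.57 at 60 min and 0.69 at 120 min. Of 19 tested, 3 were higher (15.8%, near the 13.4% of all tested genes) and 0 lower. The list's median was 0.11, but -0.11 with upper quartile centring and -0.39 after quantile normalization. The 3 higher chemokines were Pf4, Ccl6 and Ccl9, which were already present at 0 min. Of 23 cytokines 1 was higher and 3 lower (13.0%, near the 11.2% of all tested genes), with a median of -0.18 (0.70 on the deposited scale). Tgfb1 was higher (1.12 ± 0.17), and Il15 (-1.80 ± 0.20), Il27 (-1.36 ± 0.31) and Il1a (-1.20 ± 0.30) were lower. Il27 and Il1a were near 0 RPKM in both fractions at 0 min, where such values score below 0 (-0.93 and -0.91). Tnf had 14.9, 474, 3174, 1421 and 1087 RPKM in nucleoplasmic RNA, against 20.6, 414, 1158, 572 and 552 RPKM in chromatin RNA, and its difference of -0.18 ± 0.24 was not called (limma, adjusted p = 0.526). Nos2, the inducible nitric oxide synthase, reached 130 RPKM in nucleoplasmic RNA and 83.0 RPKM in chromatin RNA at 120 min, and at 60 min had 0.502 RPKM in nucleoplasmic RNA and 2.96 RPKM in chromatin RNA (difference over all 5 times -1.09 ± 0.30; limma, adjusted p = 0.0064). At 0, 15 and 30 min Nos2 was near 0 RPKM in both fractions and scored -0.67, -0.7 and -1.14, which enter that difference. Of the other always-named response genes, Il1b, Il6, Il12b, Cxcl10, Cxcl2, Ccl5, Egr1, Fos, Ifnb1 and Ptgs2 were not called, with differences of -0.65 to 0.12, and neither was Irg1 (-0.95 ± 0.36).

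The ratio at 60 and 120 min was tested against that at 15 and 30 min across all genes. It was higher late in 37 genes (0.413%) and lower in 3 (0.0335%), by limma at a Benjamini-Hochberg adjusted p under 0.05 and 2-fold, and 877 genes had an unadjusted p under 0.05. Ifrd1, chosen after its value was seen as the largest of these, averaged 0.15 at 60 and 120 min and -3.27 at 15 and 30 min, a difference of 3.42 ± 0.39 (limma, adjusted p = 0.00229). It had 4.54, 11.3, 45.5, 38.0 and 12.4 RPKM in nucleoplasmic RNA, against 6.32, 79.3, 176, 16 and 6.52 RPKM in chromatin RNA. At 15 and 30 min its chromatin value was several times its nucleoplasmic value, and at 60 and 120 min the nucleoplasmic value was the higher. Il1b (2.49 ± 0.40), Il12b (2.37 ± 0.48), Cd83 (2.34 ± 0.38), Il1a (2.08 ± 0.38), Irg1 (2.06 ± 0.42), Ifnb1 (1.70 ± 0.31) and Cxcl10 (1.60 ± 0.30) were also higher late, and Txnip was lower late (-1.66 ± 0.32). At 15 min Ifnb1 (0.165 RPKM in nucleoplasmic and 0.124 RPKM in chromatin RNA) and Il12b (0.31 and 0.362 RPKM) had few reads. Their scores there, -0.69 and -0.88, are near what the added 0.5 RPKM and the centring give to values near 0. The calls rest on 2 values against 2 that are not replicates, and with 0 min counted among the early times 0 genes were called by limma in either direction (883 at an unadjusted p under 0.05).

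Intron reads, compared after the other results were seen, differed between the fractions far more than exon reads. For 475 genes listed in a second deposited table as induced, whole-gene and exon values gave the density of intron reads over that of exon reads, where a library had 50 exon reads or more and the introns were 500 bases or longer. The median over genes was 0.0212, 0.067, 0.0634, 0.0417 and 0.0271 in nucleoplasmic RNA at 0, 15, 30, 60 and 120 min, against 0.34, 0.504, 0.502, 0.457 and 0.30 in chromatin RNA. The 2 sets of 5 medians did not overlap, and the nucleoplasmic median was the lower at all 5 times; a two-sided exact sign test over 5 pairs cannot go below p = 0.0625. Of 284 genes with a value in all 10 libraries, 281 to 284 had the lower density in nucleoplasmic RNA at each time, and in 221 every nucleoplasmic value was below every chromatin value. Plek, a substrate of protein kinase C chosen after its values were seen, had densities of 0.0172, 0.315, 0.136, 0.0239 and 0.00841 in nucleoplasmic RNA, against 0.374, 1.36, 0.516, 0.391 and 0.204 in chromatin RNA. In Tnfaip3 the nucleoplasmic density reached 0.804 at 15 min, against 0.731 in chromatin RNA, and was 0.101, 0.0868, 0.0643 and 0.0567 at the other times. Over all these genes, both fractions had their highest median densities at 15 and 30 min.

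**Figure D5:**
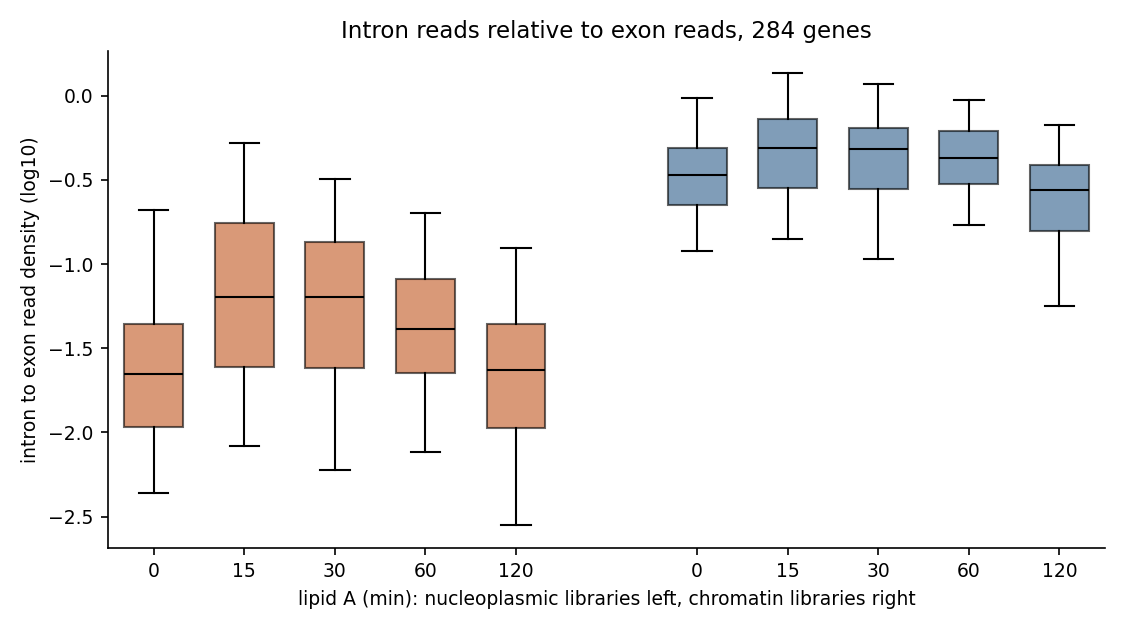
Density of intron reads over exon reads (log10) for 284 induced genes in the 5 nucleoplasmic libraries (left, orange) and the 5 chromatin libraries (right, blue), by minutes of lipid A. Boxes show quartiles and median over genes and whiskers the 5th and 95th percentiles; the nucleoplasmic boxes lie below the chromatin boxes at every time, and both are highest at 15 and 30 min.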

How the data were processed

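RNA-seq exon values of 5 nucleoplasmic and 5 chromatin libraries were used as the authors deposited them, in RPKM (reads per kilobase of exon, scaled to library size), per the file headers. TopHat and the mouse build mm9 are named in the submitters' processing notes. For the counting tool, annotation and multi-mapped reads, nothing is given in the sources used here. The libraries were strand-specific (dUTP) and depleted of ribosomal RNA, per the labels' protocols. The authors' induction classes were taken from a second deposited table, and 3 further deposited columns, which no sample label matched, were not used.

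RPKM values were whole multiples of 1 read for 100.0% of values (within 0.02 reads), which gave reads and depth. Values without reads had been replaced by a small number (199 of the values here). Genes with 1 RPKM or more in 3 of 10 libraries were tested on log2(RPKM + 0.5), after centring each library on its median gene. The 0.5 pulls the uncentred ratio of low genes toward 0 and so understates it. After centring, a gene near 0 RPKM in both fractions at a time lies about 0.71 to 1.08 below the median gene. Adamts4 at 0 min, with 0.0052 RPKM in nucleoplasmic RNA and 0.00592 RPKM in chromatin RNA, scored -0.76. limma 3.58.1 (R 4.3.3; trended prior, time as a term) was used with Benjamini-Hochberg adjustment over all genes tested, and a call needed an adjusted p under 0.05 and 2-fold. On simulated data this step called 100% of 3-fold higher and 87.2% of 3-fold lower genes, and 0% of unchanged ones (8818 genes). The simulation gave every gene the same spread and set no general gap between the fractions. Its rates therefore need not hold for the real libraries. Tables were handled with Python 3.11.15 and pandas 2.3.3. Gene structure and shared sequence (31-base words) came from GENCODE M21 on GRCm38, so no coordinates are given for the files' genes. Counting intervals are 95% and cover counting error only.

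Genes for the text were drawn from the 12 largest and 12 smallest called differences with a mean of 3 RPKM or more, the 2 largest and 2 smallest called members of each list, the 10 largest changes from 0 min each way, and a short set of always-named genes (183 in all). Not all 183 are described, and 1 item is not reported here. The members and lists were chosen with earlier results of these data known. Alternatives covered scaling, pseudocount, filter, time term, libraries left out, shared sequence and limma-voom on recovered reads.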

Additional observations from a re-analysis of the deposited data

Results flagged for a closer look

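Of 61 sets of 5 values examined, 5 held a library far from the other 4; chance alone gives about 1 in 20. The exon share of chromatin reads was 27.2% at 120 min, above the other 4 chromatin libraries. The centred log2 ratio of nucleoplasmic to chromatin RNA stood apart for S100a9 at 15 min (2.47), for Actg1 at 0 min (-3.82), for Icam4 at 0 min (-0.83, where nearly no Icam4 reads were present), and for the median over surface receptors at 30 min (0.48).

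The ratio at 60 and 120 min differed from that at 15 and 30 min, in the limma test across all genes, for 11 of the genes named in the text. The difference was 3.42 for Ifrd1, 2.5 for Plek, 2.49 for Il1b, 2.37 for Il12b, 2.34 for Cd83, 2.33 for Dusp5, 2.08 for Il1a, 2.06 for Irg1, 1.70 for Ifnb1, 1.60 for Cxcl10 and -1.66 for Txnip. None of these calls held when 0 min was counted with the early times. Ifnb1 and Il12b were near 0 RPKM in both fractions at 15 min.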

How the results depend on the processing

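None of the 152 called genes among the 183 drawn for the text changed sign under the scaling, pseudocount, filter, model and leave-out alternatives, of which the mean of 5 RPKM or more held 118 and the limit on shared sequence 115. On the deposited scale 42 lost their call, 8 gained one, and 18 uncalled genes changed sign. Many of the 152 were drawn as the largest or smallest differences, so their kept signs do not speak for the other called genes. Leaving out each time in turn gave 1127 to 1323 genes higher and 972 to 1086 lower. On the deposited scale 4148 were higher and 215 lower, and 4 of 33 lists had a median below 0, against 14; upper quartile centring gave 723 higher and quantile normalization 758 higher. A mean of 5 RPKM or more left 599 higher and 442 lower, and turned the ribosomal protein median to 0.72; genes with 10% shared sequence or less gave 1.70. Without the term for time, which pairs the fractions (no replicate block), 1159 were higher and 878 lower. limma-voom on recovered reads, added after seeing the data, gave 1558 higher and 1274 lower.

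The late against early test was fragile: 3 higher and 0 lower with a pseudocount of 0.1 RPKM, 23 and 1 with 1 RPKM, and 0 and 0 with 0 min among the early times. The upward changes from 0 min numbered 27 on the deposited scale, 21 with 0.1 RPKM, 4 with 3 RPKM or more in both fractions, 399 at 2-fold and 5 without the 120 min libraries; the downward ones 45 on the deposited scale, 50 with 3 RPKM and 911 at 2-fold. Later nucleoplasmic maxima numbered 125 of 483 with centred libraries (25.9%), 186 of 802 at 2-fold (23.2%) and 69 of 177 without the 120 min libraries (39.0%). The cause of these shifts was not tested. With 1 library per fraction and time, no difference between single times can be tested, and genes of 1 RPKM rest on few reads.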

Other observations

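Macrophage identity genes lay toward the nucleoplasm, with 13 of 22 higher in nucleoplasmic RNA and 1 lower (median 1.20), and with 3 higher after quantile normalization. Their median levels were 314 RPKM in nucleoplasmic RNA and 54.6 RPKM in chromatin RNA. Of all tested genes with a mean of 100 RPKM or more, 67.5% were higher. Mitotic genes had 4 of 40 higher and 1 lower (median 0.52), DNA replication and repair genes 8 of 47 higher and 0 lower (0.29), aminoacyl-tRNA synthetases 1 of 22 higher and 0 lower (0.70), and Rab GTPases 1 of 31 higher and 1 lower (0.23). Over all tested genes 13.4% were higher and 11.2% lower, so the mitotic, synthetase and Rab shares were under those of all genes. Circadian clock genes had 3 of 14 lower and 0 higher (median -0.44, 0.44 on the deposited scale), the 3 being Per3 (-1.36), Cry2 (-1.13) and Clock (-1.01). MAP kinase phosphatases and Sprouty genes had 1 of 14 lower and 0 higher (-0.30, 0.58 on the deposited scale), Toll-like receptor pathway genes 4 higher and 4 lower of 38 (-0.23, 0.64 on the deposited scale), and ubiquitin ligases with long genes 0 of 27 called (-0.02, 0.86 on the deposited scale).

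Gene families grouped by name after the values were seen gave further contrasts, with no test of a family. Of 178 zinc finger genes named Zfp, 61 (34.3%) were lower in nucleoplasmic RNA and 0 higher (median -0.83, 0.05 on the deposited scale), and of 27 RNA-binding motif genes 9 were lower and 1 higher (-0.39, 0.49 on the deposited scale). On the other side, 11 of 13 cathepsins (median 1.44), 27 of 51 CD antigens (1.04) and 6 of 6 S100 genes (1.83) were higher and 0 lower. Of 149 solute carriers 34 (22.8%) were higher and 6 lower (0.51). Of 119 genes named Tmem 28 (23.5%) were higher and 4 lower (0.68). Over all tested genes 13.4% were higher and 11.2% lower. The S100 genes had a median nucleoplasmic to cytoplasmic log2 ratio of -0.68, whereas it was 2.51 for the cathepsins.

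In the authors' induction classes of the second table, which were set on these samples, the centred ratio was lowest at 15 min in class A1 (median -1.10), at 30 min in classes A2, B, C and D (-1.36, -1.22, -1.26 and -1.16), at 60 min in class E (-0.85) and at 120 min in class F (-0.71).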
